A study of Mus musculus with 9 samples.

Results

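The 10 genes described here encode chains of the receptors for interferons and for a set of interleukins in mouse macrophages: Il4ra and Il13ra1 (interleukin-4 and interleukin-13), Il10ra (interleukin-10), Il6ra and Il6st (interleukin-6 and related cytokines), Ifngr1 and Ifngr2 (interferon gamma), Ifnar1 and Ifnar2 (type I interferons) and Il21r (interleukin-21). They were picked by gene symbol, and all 10 were found among 22376 symbols and passed the filter on low values, which left 13741 genes. The macrophages were grown from the marrow of wild-type C57Bl/6 mice for 1 week in 10 ng/ml M-CSF, the growth factor that drives marrow cells into macrophages, then washed free of it, and 50000 cells were plated for 48 h. Wells received a PD-L1 antibody at 100 µg/ml (BE0101; PD-L1 antibody 1 to 3), an irrelevant antibody of matched isotype at 100 µg/ml (BE0090; isotype 4 to 6), or nothing (untreated 7 to 9), with 3 libraries in each group. PD-L1 is a surface ligand of the inhibitory receptor PD-1. Every group therefore shares the genotype, the growth factor and its withdrawal, and no other cell type was added. Neither the number of animals nor whether wells came from separate cultures is given, so the p-values refer to the spread between these libraries alone, which could be purely technical.

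Receptors of this kind have no enzyme of their own. Each is built from at least a pair of chains whose tails carry Janus kinases, and a bound cytokine brings the chains together, so that the kinases activate each other and then STAT transcription factors. Type I interferons use STAT2 with Irf9 among others, interleukin-4 and interleukin-13 act mainly through STAT6, and interleukin-6 and interleukin-10 mainly through STAT3. In macrophages these inputs are known for setting antiviral, antimicrobial, tissue-repair and anti-inflammatory programmes, and the amount of a chain on the surface can limit how strongly a cell responds to a cytokine. Only RNA was measured here, not surface protein or signalling.

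Levels are CPM, the exonic reads of a gene per 1e+06 of a library's scaled total. Library totals ran from 23554320 to 40116467 exonic read equivalents, and all of the 9 replicate pairs within groups differed by more than sampling noise. PD-L1 antibody 2 came, going by its file's name, from another sequencing lane than the other 8 libraries. Without it 8 chains were called against isotype (6 higher, 2 lower, beside 14.4% and 13.8% of all genes) and 8 against untreated wells (5 higher, 3 lower, beside 17.9% and 16%). Untreated 7 stood apart from untreated 8 and 9. Over all genes with enough reads, the chi-square per gene against sampling noise was 78.53 and 83.13 to those libraries. It was 7.87 between untreated 8 and 9 and 13.73 to 36.13 within the other groups. For 9 of the 10 receptor chains untreated 7 lay outside the range of untreated 8 and 9. For 9 of 10 it lay within the isotype range. Small gaps count too, as for Ifnar2 (184.2 against 186.4 and 196.8 CPM), and the share over all genes was not computed. The fold changes of the 10 chains and the chain ratios against the untreated group are therefore given with and without untreated 7. Fold changes of other genes and medians against that group include it, except where stated. Of the defining macrophage markers, all 10 listed were measured in every group, with levels of Csf1r, the M-CSF receptor, of 2220 to 3760 CPM over the 9 libraries and of Lyz2 (9880 to 15100 CPM), the lysozyme of myeloid cells. Neither Csf1r nor Lyz2 was called against isotype, but 4 of the 10 macrophage markers were called higher and 1 lower, as named further below. The T cell gene Cd3e did not exceed 0.823 CPM in any library.

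With the PD-L1 antibody 6 chains rose and 2 fell against the isotype antibody: Il4ra, Il21r, Ifnar1, Ifngr2, Ifnar2 and Il13ra1 were higher, Il6st and Il6ra lower, and Il10ra and Ifngr1 missed the threshold (limma's moderated test, Benjamini-Hochberg adjusted p under 0.05 over all 13741 genes). The same test called 18.2% of all genes higher and 18.2% lower, so calls in both directions were common in this comparison. Levels of the PD-L1 antibody and isotype libraries did not overlap for any of the 10 chains, 6 higher and 4 lower, against 26% of all genes higher and 26.1% lower without overlap. The median log2 fold change of the 10 chains was 0.41, against -0.01 over all genes tested. In whole-well RNA, fewer cells of a type and less RNA per cell cannot be told apart.

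Against untreated wells 5 chains rose and 4 fell, with Il13ra1 the one below the threshold, beside 22% of all genes called higher and 20.5% lower. Again no chain overlapped between the groups (6 higher, 4 lower; 26.3% of all genes were higher and 24.9% lower without overlap), and the median was 0.31 against -0.01. Both comparisons share the PD-L1 antibody libraries and are not independent. Between the isotype and untreated libraries none of the 10 chains passed limma's threshold (adjusted p 0.348 to 0.917), 3 had an unadjusted p under 0.05, and edgeR and DESeq2 on the deposited read counts also called 0. There 0.00728% of all genes passed in either direction, and 7.64% were higher and 5.52% lower in the isotype libraries without overlap, while all 10 chains overlapped. Without untreated 7, this comparison called 5 chains, 2 higher and 3 lower with isotype, beside 9.56% of all genes higher and 6.85% lower. In that fit 10 chains were called against isotype (6 higher, 4 lower, beside 21.3% and 21.8% of all genes) and 9 against untreated 8 and 9 (5 higher, 4 lower, beside 24.6% and 23.8%).

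**Figure D1:**
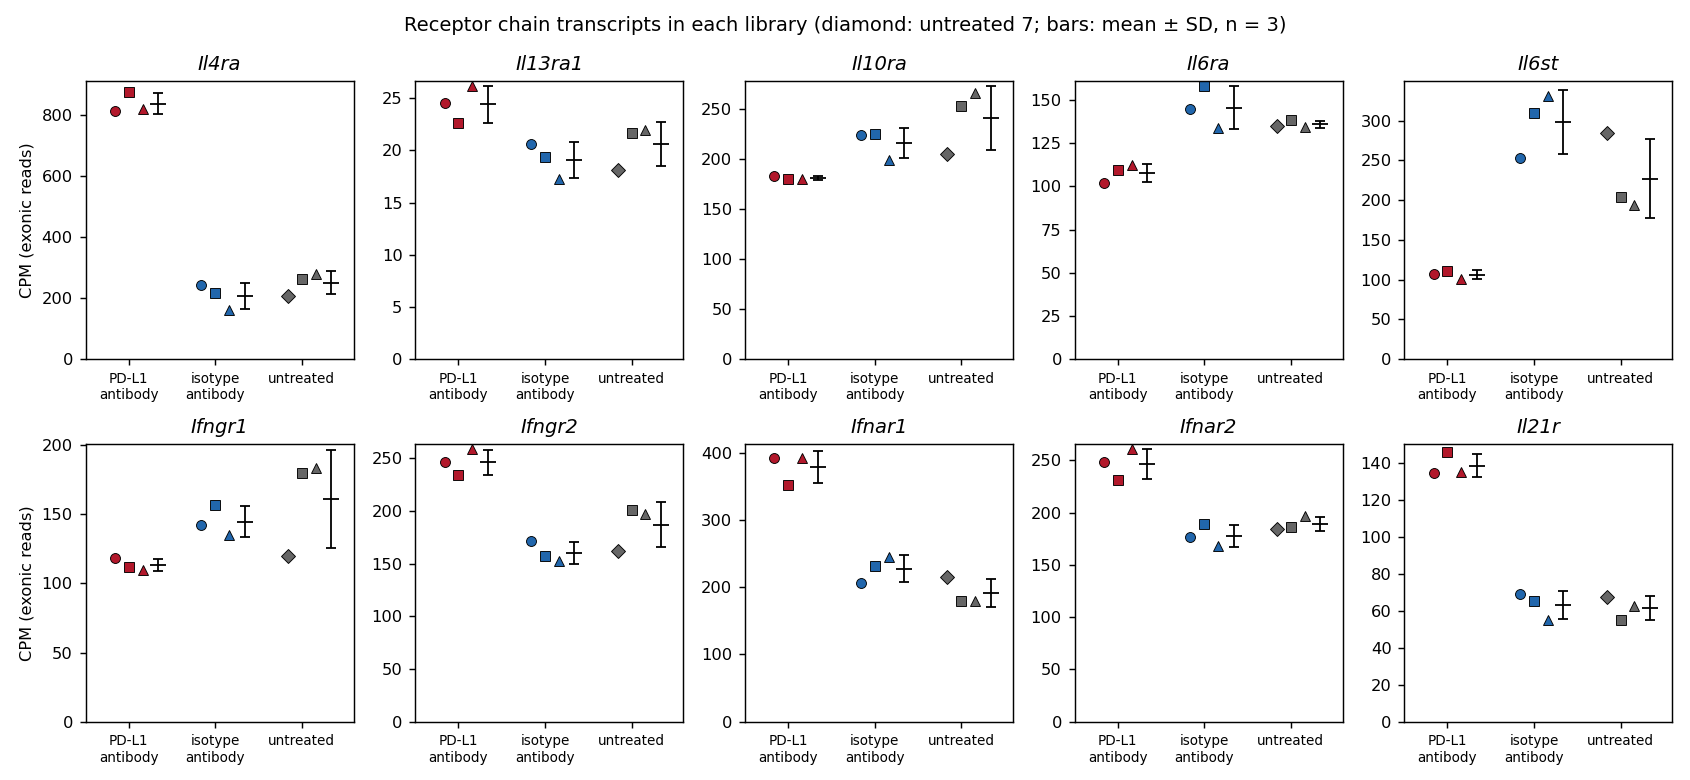
CPM of each receptor chain (vertical axes, starting at 0 and differing between panels) in the 9 libraries, by group, with the mean and SD of 3 libraries beside the points. In every panel the 3 PD-L1 antibody libraries lie to one side of the 3 isotype libraries, and the diamond (untreated 7) mostly lies away from untreated 8 and 9.

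**Figure D2:**
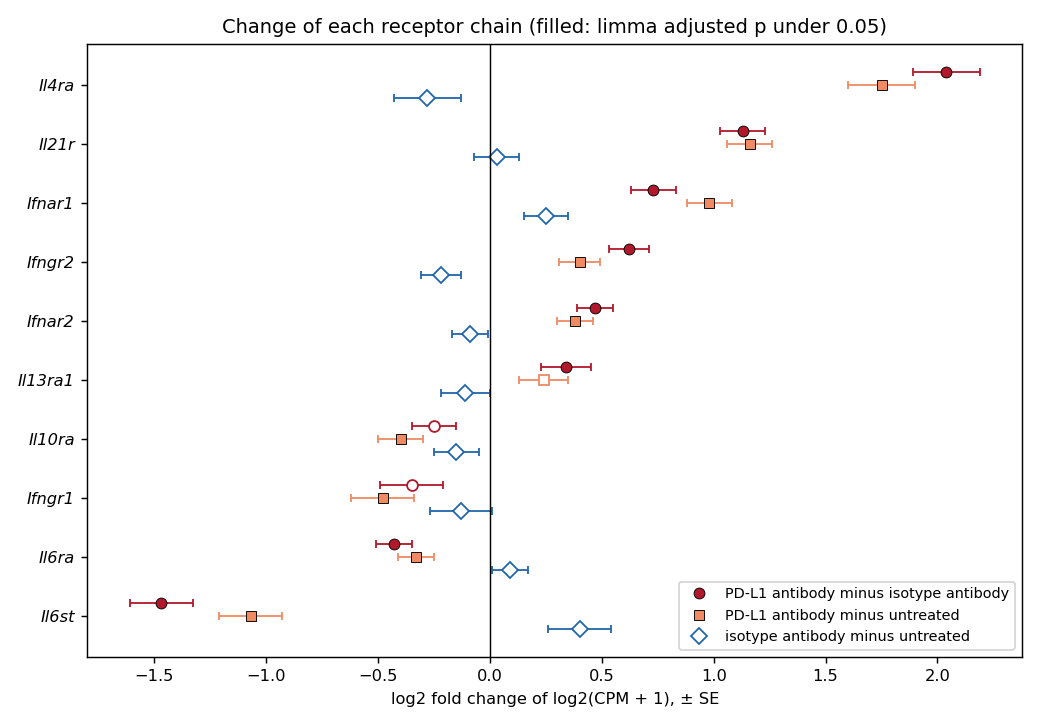
Log2 fold change ± SE of each receptor chain in the 3 comparisons, with filled symbols for a limma adjusted p under 0.05. Il4ra (2.04) and Il6st (-1.47) mark the ends of the range against the isotype antibody, and no isotype-minus-untreated symbol is filled.

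Il4ra, the chain that binds interleukin-4 and serves in both interleukin-4 and interleukin-13 receptors, showed the largest change of the 10. Its level was 815, 875.9 and 821.4 CPM in the PD-L1 antibody libraries, 242.6, 215.3 and 161 CPM in the isotype libraries and 207.3, 262 and 279.8 CPM in untreated 7, 8 and 9. The lowest PD-L1 antibody library thus lay far above the highest of the other 6, which overlapped among themselves. The mean was 4.06 times the isotype mean and 3.35 times the untreated mean, and the log2 fold changes were 2.04 (SE 0.15, limma adjusted p = 2.14e-06) and 1.75 (SE 0.15, adjusted p = 5.92e-06). Against untreated wells the log2 fold change was 1.62 when untreated 7 was left out.

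Il4ra occupies chr7:125552282-125579474 on the plus strand (GRCm38 positions throughout). A noncoding antisense gene, Gm44876, overlaps one or more of its exons in GENCODE M21, and the sources used here do not say whether reads were assigned by strand, so a part of its signal could come from that gene. The share of reads over the gene's span that fell in exons was 83.9 to 84.2% with the PD-L1 antibody, 83.2 to 84.5% with the isotype antibody and 85.7 to 87.5% in untreated wells, so the PD-L1 antibody libraries lay within the isotype range and below the untreated one.

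Il13ra1 joins Il4ra in the receptor that responds to both interleukin-4 and interleukin-13. It was at 24.54, 22.63 and 26.16 CPM under the PD-L1 antibody, 20.59, 19.39 and 17.23 CPM with isotype and 18.17, 21.71 and 21.95 CPM in untreated 7, 8 and 9. The PD-L1 antibody libraries were the 3 highest, by a small margin. The log2 fold change was 0.34 against isotype (SE 0.11, limma adjusted p = 0.0281) and 0.24 against untreated wells, where it missed the threshold (adjusted p = 0.0985; 0.15 and adjusted p = 0.245 without untreated 7). The call against isotype is a weak one: 9 of 23 alternative settings ended it, total-count scaling among them (0.17, adjusted p = 0.182). It also ended without PD-L1 antibody 1 or 3 or isotype 5 or 6 (adjusted p 0.0775, 0.101, 0.0666 and 0.102), where the log2 fold change was 0.34, 0.29, 0.35 and 0.28. The gene lies at chrX:36112108-36171261, plus strand, with no other annotated gene on its exons.

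Il4ra and Il13ra1 therefore changed unequally in size. Per kilobase of exon, the level of Il4ra was 25.02 times that of Il13ra1 with the PD-L1 antibody, 7.8 times with the isotype antibody and 8.8 times in untreated wells. The log2 ratio was 4.6, 4.82 and 4.52 in the PD-L1 antibody libraries against 3.1, 3.02 and 2.77 with isotype and 3.06, 3.14 and 3.22 in untreated 7, 8 and 9. The groups did not overlap, with a difference of 1.68 against isotype and 1.51 against untreated wells (exact permutation test, two-sided, p = 0.1 each, the smallest that 3 against 3 libraries allow; 0.15 after adjustment over 18 tests).

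Il21r encodes the ligand-binding chain for interleukin-21, a product mainly of T cells, and it signals together with Il2rg, the common gamma chain. The level of Il21r was 134.8, 146 and 135.1 CPM under the PD-L1 antibody, 69.27, 65.35 and 55.08 CPM with isotype and 67.67, 54.91 and 62.82 CPM in untreated 7, 8 and 9. All 3 PD-L1 antibody libraries lay well above the other 6, whose groups overlapped. The log2 fold change was 1.13 (SE 0.1, limma adjusted p = 1.08e-05) against isotype and 1.16 (SE 0.1, adjusted p = 8.63e-06) against untreated wells (1.22 without untreated 7). Between isotype and untreated wells it was 0.03, a value whose sign turned when isotype 4 or untreated 8 was left out.

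Il2rg, the partner of Il21r and of the other type of interleukin-4 receptor, rose as well, from 201.8 ± 10.1 CPM (SD, n = 3) with isotype and 209.2 ± 13.6 in untreated wells to 355.5 ± 11.7 with the PD-L1 antibody. Its log2 fold change was 0.81 against isotype and 0.76 against untreated wells (limma adjusted p = 1.43e-05 and 2.19e-05). The log2 ratio of Il21r to Il2rg per kilobase was -2.05, -1.88 and -2.09 with the PD-L1 antibody, -2.24, -2.19 and -2.56 with isotype and -2.37, -2.49 and -2.37 in untreated 7, 8 and 9. The differences were 0.32 and 0.4 in favour of Il21r, with no overlap of groups (exact permutation p = 0.1 each, adjusted 0.15), and that from isotype was 0.21 without isotype 6.

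Il4ra and Il21r are direct neighbours among protein-coding genes. Il21r lies at chr7:125603429-125633570 on the plus strand, 23954 bases downstream of the end of Il4ra, and has no exon shared with another annotated gene. They were the 2 chains with the largest rises.

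Ifnar1 and Ifnar2 form the receptor of interferon alpha and beta. Ifnar1, the chain that binds Tyk2, was at 391.9, 351.5 and 392.1 CPM under the PD-L1 antibody, 205.8, 231.7 and 245.6 CPM with isotype and 215.1, 180.2 and 179 CPM in untreated 7, 8 and 9. The PD-L1 antibody libraries were the 3 highest, untreated 8 and 9 the lowest, and untreated 7 lay among the isotype libraries. The log2 fold change was 0.73 (SE 0.1, limma adjusted p = 0.000182) against isotype and 0.98 (SE 0.1, adjusted p = 2.03e-05) against untreated wells, and 1.07 against untreated 8 and 9 alone.

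Ifnar2, the chain that binds type I interferon with the higher affinity and carries Jak1, changed less. It was at 248.3, 231.4 and 260.5 CPM under the PD-L1 antibody, 177.1, 188.9 and 167.7 CPM with isotype and 184.2, 186.4 and 196.8 CPM in untreated wells. The log2 fold changes were 0.47 (SE 0.08, limma adjusted p = 0.000728) and 0.38 (SE 0.08, adjusted p = 0.00242), and 0.29 and 0.23 under total-count scaling, where both still passed. The latter was 0.36 without untreated 7. The ratio of Ifnar1 to Ifnar2 per kilobase was 0.67 with the PD-L1 antibody, 0.55 with isotype and 0.44 in untreated wells. On the log2 scale this ratio was higher with the PD-L1 antibody by 0.26 and 0.6 without overlap (exact permutation p = 0.1 each, adjusted 0.15), although isotype 6, at -0.65, came close to the lowest PD-L1 antibody library at -0.61. The difference from isotype was 0.13 when each gene was represented by its transcript of highest coverage, which for Ifnar2 is the short one.

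Of 3 transcripts listed for Ifnar2, the shortest has 1169 exonic bases, and the longest, used for the levels above, has 3045 and an end 11544 bases further downstream, and mouse Ifnar2 is known to give a soluble as well as a membrane form. Mean coverage of the short over the long transcript was 1.82, 1.77 and 1.78 with the PD-L1 antibody, 1.69, 1.59 and 1.61 with isotype and 1.62, 1.85 and 1.81 in untreated 7, 8 and 9. The PD-L1 antibody libraries were above the isotype ones without overlap (exact permutation p = 0.1, the smallest possible), but lay among the untreated ones (p = 0.9). The transcripts share exons, so this ratio is no measure of the molecules of each form.

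The interferon gamma receptor is made of Ifngr1, which binds the ligand and carries Jak1, and Ifngr2, which carries Jak2. These chains differed in direction. Ifngr2 was at 246.3, 234.7 and 258.6 CPM under the PD-L1 antibody, 171.6, 157.1 and 152.3 CPM with isotype and 162.4, 201.5 and 197.2 CPM in untreated 7, 8 and 9. All PD-L1 antibody libraries were above the rest, with log2 fold changes of 0.62 (SE 0.09, limma adjusted p = 0.000434) and 0.4 (SE 0.09, adjusted p = 0.0057). The latter was 0.3 without untreated 7 and 0.25 under total-count scaling, and passed in both cases.

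Ifngr1 was at 118.1, 112 and 109.7 CPM under the PD-L1 antibody, 142.3, 156.7 and 134.7 CPM with isotype and 119.8, 179.8 and 183 CPM in untreated 7, 8 and 9. The PD-L1 antibody libraries were the 3 lowest, but untreated 7 exceeded the highest of them only narrowly. The log2 fold change against isotype was -0.35 and missed the threshold (SE 0.14, limma adjusted p = 0.0764), while that against untreated wells was -0.48 and passed (SE 0.14, adjusted p = 0.0184). Neither side of the threshold was firm. Against isotype, 5 of 23 alternative settings passed, among them leaving out untreated 7 (adjusted p = 0.0015). Against untreated wells, 6 of 23 did not pass, among them leaving out PD-L1 antibody 2 or 3 or untreated 8 or 9 (adjusted p 0.056, 0.0569, 0.0755 and 0.0716; log2 fold change -0.47, -0.46, -0.39 and -0.37), and without untreated 7 it was -0.68.

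The balance of the interferon gamma receptor chains shifted accordingly. Per kilobase of exon the level of Ifngr1 was 0.45 of that of Ifngr2 with the PD-L1 antibody, against 0.88 with isotype and 0.83 in untreated wells. In log2 the ratio was -1.09, -1.1 and -1.26 against -0.3, -0.03 and -0.2 with isotype and -0.47, -0.19 and -0.14 in untreated 7, 8 and 9. The differences of -0.97 and -0.88 came without overlap of groups (exact permutation p = 0.1 each, adjusted 0.15), and a ratio within a library does not depend on how libraries are scaled.

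The interferon receptor chains that rose, Ifnar2, Ifnar1 and Ifngr2 in this order, lie together on the plus strand of chromosome 16 with Il10rb, the second chain of the interleukin-10 receptor, between Ifnar2 and Ifnar1. Ifnar2 lies at chr16:91372783-91405587, Il10rb at chr16:91406235-91425834, Ifnar1 at chr16:91485215-91510522 and Ifngr2 at chr16:91547094-91564007, and 141506 bases separate the end of Ifnar2 from the start of Ifngr2. Ifnar2 and Il10rb are 647 bases apart, and an annotated protein-coding gene, Gm21970, shares exons with both, so reads on the shared exons cannot be assigned to one gene. Ifnar1 and Ifngr2 share no exon with another annotated gene. The remaining interferon receptor chain, Ifngr1, lies on another chromosome (chr10:19591949-19610227, plus strand).

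While Ifnar2, Ifnar1 and Ifngr2 rose, Il10rb did not pass the test in any comparison. It was at 270.1, 300.3 and 249.2 CPM under the PD-L1 antibody, 287.4, 260.9 and 271 CPM with isotype and 258.3, 316.6 and 318.4 CPM in untreated 7, 8 and 9, with overlap between all groups. Its log2 fold change was 0 against isotype (SE 0.1, limma adjusted p = 0.987) and -0.12 against untreated wells (adjusted p = 0.367).

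The promoter sequences of the 3 rising chains of chromosome 16 are shown because these genes rose together while their neighbour did not pass the test, and that of Il6st because it fell most. They are the 250 bases before the gene's start in the RefSeq table (GRCm38.p6, plus strand), none of them annotated as exon: chr16:91372533-91372782 for Ifnar2, chr16:91484965-91485214 for Ifnar1, chr16:91546809-91547058 for Ifngr2 and chr13:112463820-112464069 for Il6st. Capitals mark a match to TTCNNNGAA, the gamma-activated sequence that STAT dimers can bind, in Ifnar2, and to the NF-kB motif in Ifngr2. For Ifngr2 the gene start of that table lies a little upstream of the transcript start in the deposited files given above, and distances are counted from the former.
Ifnar2: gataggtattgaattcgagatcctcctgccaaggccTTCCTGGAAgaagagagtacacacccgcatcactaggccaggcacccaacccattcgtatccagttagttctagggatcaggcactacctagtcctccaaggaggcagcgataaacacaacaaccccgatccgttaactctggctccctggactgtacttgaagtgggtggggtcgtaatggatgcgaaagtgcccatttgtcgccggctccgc
Ifnar1: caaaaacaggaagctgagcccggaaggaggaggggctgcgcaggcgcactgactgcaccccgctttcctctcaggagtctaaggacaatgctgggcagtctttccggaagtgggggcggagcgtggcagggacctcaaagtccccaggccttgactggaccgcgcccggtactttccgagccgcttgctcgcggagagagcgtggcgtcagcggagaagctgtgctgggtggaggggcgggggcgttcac
Ifngr2: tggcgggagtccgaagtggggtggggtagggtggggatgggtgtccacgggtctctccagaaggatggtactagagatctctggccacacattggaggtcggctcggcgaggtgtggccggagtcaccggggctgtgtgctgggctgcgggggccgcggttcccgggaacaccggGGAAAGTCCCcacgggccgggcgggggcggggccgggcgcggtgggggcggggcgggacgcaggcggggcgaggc
Il6st: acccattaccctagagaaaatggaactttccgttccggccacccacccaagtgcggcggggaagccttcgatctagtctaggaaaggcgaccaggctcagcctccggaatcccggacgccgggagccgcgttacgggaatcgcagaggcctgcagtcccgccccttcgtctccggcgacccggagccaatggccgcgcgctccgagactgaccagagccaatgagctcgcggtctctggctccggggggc

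Matches were searched on both strands of these windows for the 9 chains with a RefSeq promoter, and Il10ra was not among them. TTCNNNGAA, which reads the same on both strands, occurred only in Ifnar2 among the 9, starting 214 bases before the start, and in 7.0% of 32851 promoters of the same length. The NF-kB motif occurred only in Ifngr2, starting 75 bases before the table's start, and in 7.3% of all promoters. GAAANNGAAA, the core of the interferon-stimulated response element, occurred in 0 of the 9 and in 3.0% of all. Ifnar1 and Il6st held no match to any of these motifs. The matches describe letters only, and no binding was measured.

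Il6st encodes gp130, the signal-transducing chain shared by the receptors for interleukin-6, interleukin-11, leukaemia inhibitory factor, oncostatin M and others. Its level was 107, 111.2 and 100.4 CPM under the PD-L1 antibody, 253.4, 308.9 and 331.1 CPM with isotype and 284.1, 203.7 and 193.3 CPM in untreated 7, 8 and 9. The PD-L1 antibody libraries were far below all others, while untreated 7 lay with the isotype libraries and above untreated 8 and 9. The mean was 0.36 of the isotype mean and 0.47 of the untreated mean, with log2 fold changes of -1.47 (SE 0.14, limma adjusted p = 1.62e-05) and -1.07 (SE 0.14, adjusted p = 0.000148). Without untreated 7 the latter was -0.9. The gene lies at chr13:112464070-112506860 on the plus strand and shares no exon with another annotated gene.

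Il6ra, the chain that binds interleukin-6 and hands it to gp130, fell less. It was at 102, 109.5 and 112.2 CPM under the PD-L1 antibody, 144.9, 158.3 and 133.8 CPM with isotype and 135.3, 138.3 and 134.7 CPM in untreated wells, whose libraries lay close together. The log2 fold changes were -0.43 (SE 0.08, limma adjusted p = 0.00153) and -0.33 (SE 0.08, adjusted p = 0.00588), and the latter was -0.34 without untreated 7. Il6ra lies at chr3:89869324-89913196 on the minus strand, and the noncoding antisense gene Gm42809 overlaps its exons, so a part of its reads could belong to that gene.

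Il6st and Il6ra changed unequally. Il6ra was at 1.64 times the level of Il6st per kilobase with the PD-L1 antibody, at 0.79 with isotype and at 0.98 in untreated wells. The log2 ratio was 0.62, 0.67 and 0.85 with the PD-L1 antibody, -0.12, -0.27 and -0.62 with isotype and -0.38, 0.13 and 0.17 in untreated 7, 8 and 9. The differences were 1.05 and 0.74 without overlap of groups (exact permutation p = 0.1 each, adjusted 0.15). Il6ra was thus the lower of the pair in all isotype libraries and untreated 7, and the higher in untreated 8 and 9 and with the PD-L1 antibody.

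Il10ra, the ligand-binding chain for the anti-inflammatory cytokine interleukin-10, was at 183, 179.8 and 179.5 CPM under the PD-L1 antibody, 223.9, 224.3 and 198.7 CPM with isotype and 204.8, 252.7 and 265.7 CPM in untreated 7, 8 and 9. The 3 PD-L1 antibody libraries were nearly equal and the lowest of the 9. The log2 fold change was -0.4 against untreated wells (SE 0.1, limma adjusted p = 0.00734; -0.52 without untreated 7) and -0.25 against isotype, where it missed the threshold (SE 0.1, adjusted p = 0.0707). It passed against isotype in 7 of 23 alternative settings, among them leaving out untreated 7 (adjusted p = 0.0087) and edgeR on the deposited read counts (-0.33, adjusted p = 0.0477), and was -0.43 (adjusted p = 0.00279) under total-count scaling. Its log2 ratio to Il10rb per kilobase was -1.48, -1.66 and -1.39 with the PD-L1 antibody, -1.28, -1.14 and -1.37 with isotype and -1.25, -1.24 and -1.18 in untreated wells, lower by 0.25 and 0.28 on the means, with PD-L1 antibody 3 and isotype 6 close to each other. Il10ra lies at chr9:45253837-45269149 on the minus strand.

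With untreated 7 left out, the log2 fold changes against untreated wells were 1.62 for Il4ra, 1.07 for Ifnar1 and -0.9 for Il6st, and all 3 still passed limma's threshold. In the same setting the differences of the log2 ratios from untreated wells were 1.47 for Il4ra/Il13ra1, -0.99 for Ifngr1/Ifngr2, 0.71 for Ifnar1/Ifnar2, 0.56 for Il6ra/Il6st, 0.42 for Il21r/Il2rg and -0.3 for Il10ra/Il10rb. All 6 kept their direction.

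**Figure D3:**
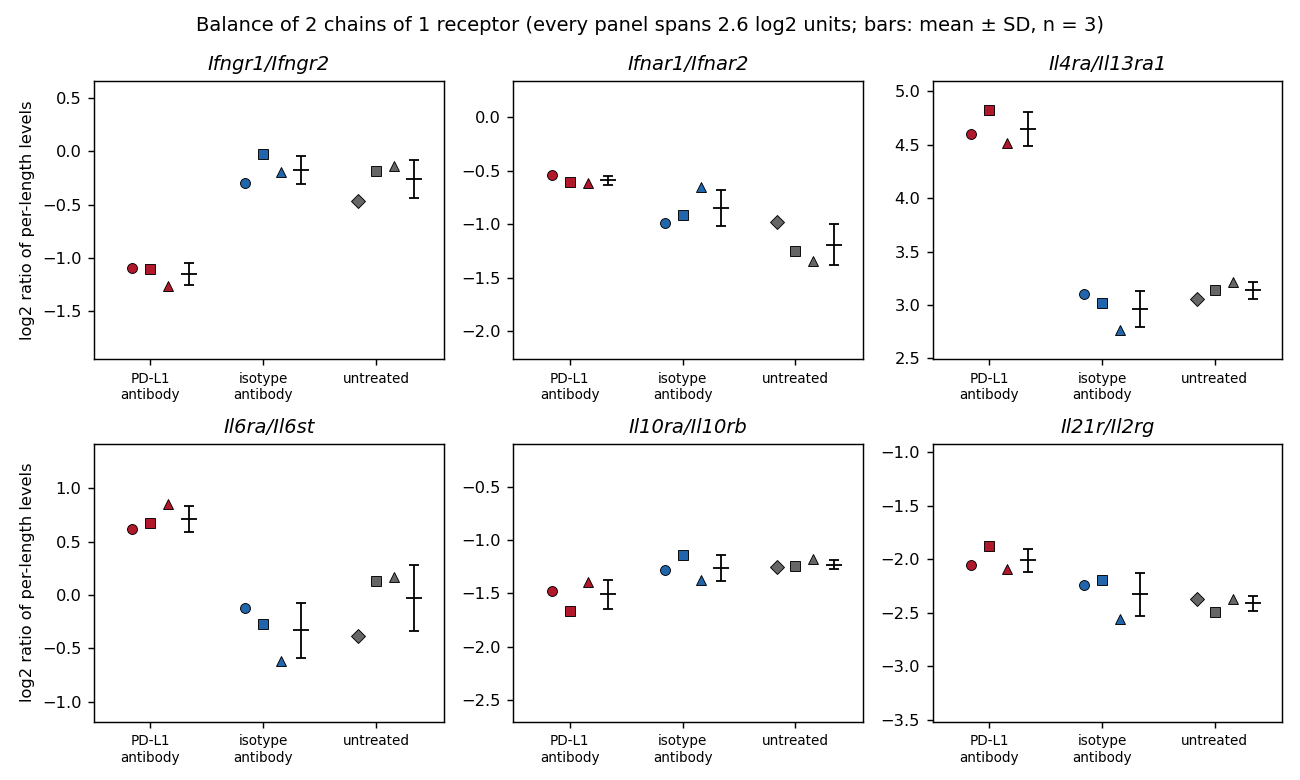
Log2 ratio of the per-kilobase levels of 2 chains of a receptor in each library, with mean and SD of 3 libraries, every panel spanning the same number of log2 units. The PD-L1 antibody libraries do not overlap the others in any panel, and the separation is widest for Il4ra/Il13ra1 (1.68 above isotype) and narrow for Il10ra/Il10rb (0.25 below isotype).

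Compared per kilobase of exon, the order of the chains differed between groups. With the PD-L1 antibody Il4ra led at 164 CPM per kilobase (SD 6.56, n = 3), followed by Ifngr2 at 119 and Ifnar2 at 81, each without overlap with the next. Ifnar1 (54), Ifngr1 (53.7), Il21r (53.2) and Il10ra (51.7) overlapped from each to the next, and Il6ra (32), Il6st (19.5) and Il13ra1 (6.58) followed apart. In isotype wells Ifngr2 led at 77.5 CPM per kilobase, and from there each chain overlapped with the next through Ifngr1 (68.5), Il10ra (61.7), Ifnar2 (58.4), Il6st (54.6), Il6ra (43.1), Il4ra (40.5) and Ifnar1 (32.5). Il21r (24.3) and Il13ra1 (5.13) lay below them.

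The untreated wells had Ifngr2 (90.4), Ifngr1 (76.2), Il10ra (68.9) and Ifnar2 (62.1 CPM per kilobase) at the head, each overlapping with the next. Below a gap came Il4ra (49), Il6st (41.6) and Il6ra (40.3), then Ifnar1 (27.3) and Il21r (23.7), then Il13ra1 (5.55). Summed per kilobase over the 10 chains, levels were 630.9 to 641.4 with the PD-L1 antibody, 442.1 to 485.4 with isotype and 448.7 to 508.4 in untreated wells. Il4ra made up 25.1 to 27.3% of that sum with the PD-L1 antibody and between 7.2 and 10.8% in the other 6 libraries. The share of Il6st was 2.9 to 3.2% with the PD-L1 antibody and from 7 to 13.7% in the others.

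**Figure D4:**
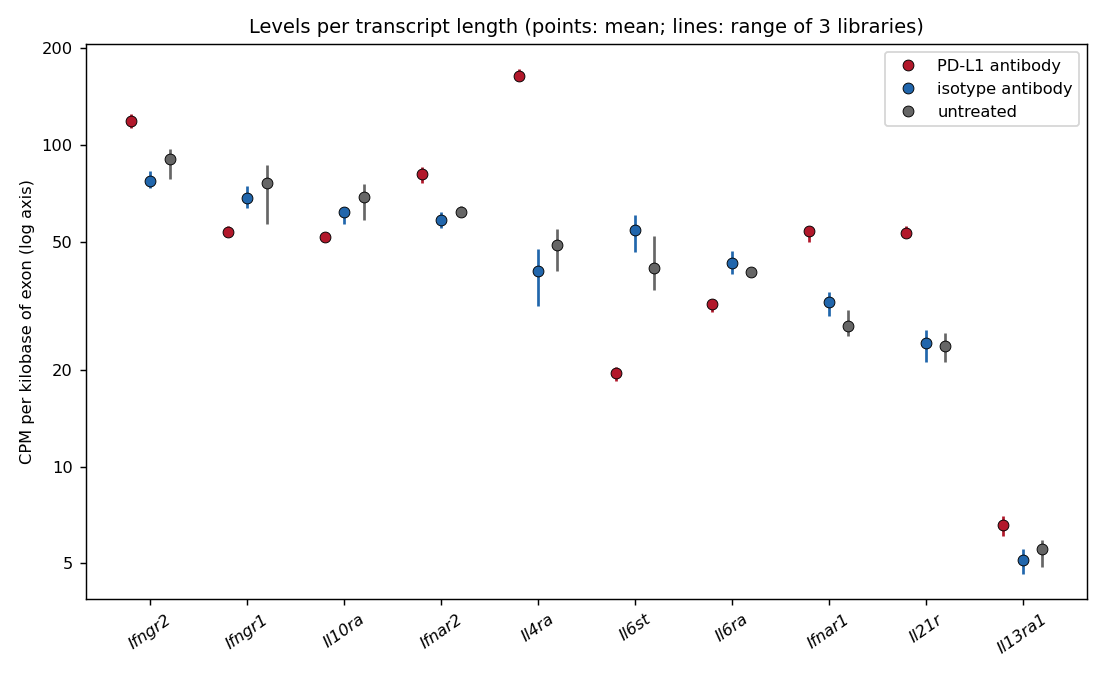
CPM per kilobase of exon (log axis) of the 10 chains, ordered by the untreated mean, with a point for the mean and a line for the range of 3 libraries. Il4ra moves from 49 in untreated wells to 164 with the PD-L1 antibody, above every other chain, while Il6st moves from 41.6 to 19.5.

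Between isotype and untreated wells the fitted differences were small, from -0.28 for Il4ra to 0.4 for Il6st, and limma called none of the 10. The 3 untreated libraries were not alike: the mean log2 level of untreated 8 and 9 differed from untreated 7 by 0.59 for Ifngr1, 0.38 for Il4ra, 0.34 for Il10ra and -0.52 for Il6st. Without untreated 7, 5 chains passed limma's threshold, in a fit where calls over all genes also rose from 1 of 13741 to 2295 of 13988. Il6st (0.57, adjusted p = 0.00456) and Ifnar1 (0.34, adjusted p = 0.0229) were higher with isotype. Ifngr1 (-0.33, adjusted p = 0.0154), Ifngr2 (-0.31, adjusted p = 0.0168) and Il10ra (-0.27, adjusted p = 0.0314) were lower. That result rests on a choice made after untreated 7 was seen to lie with the isotype libraries.

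Patterns over the 9 libraries were compared among 9502 other genes with a mean of at least 5 CPM, leaving out unnamed genes and pseudogenes. Closest to Il4ra were Slc31a2, Bnip3 and Pla2g7, at a root-mean-square distance of 0.084, 0.094 and 0.099 between centred log2(CPM + 1) values. Slc31a2, a copper transporter, went from 95.93 ± 21.8 CPM with isotype to 372.1 ± 23.2 with the PD-L1 antibody. Closest to Il6st were Adgre5, Fam83f and Nxpe4, at 0.096, 0.097 and 0.101. Adgre5, the adhesion receptor CD97, went from 197.3 ± 28 CPM with isotype to 75.17 ± 8.31 with the PD-L1 antibody.

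Of 26 ligands of these and related receptors, 11 passed the filter, and 9 rose and 0 fell against isotype, with a median log2 fold change of 0.85. Background for this and the lists that follow is the 18.2% called in each direction. Il6, the ligand of Il6ra, went from 0.4889 ± 0.258 CPM (SD, n = 3) with isotype and 0.4846 ± 0.225 in untreated wells to 9.455 ± 3.08 with the PD-L1 antibody (log2 fold change 2.79 and 2.79, limma adjusted p = 2.58e-06 and 2.6e-06). Ifnb1, the interferon beta that Ifnar1 and Ifnar2 receive, was at 2.08, 2.87 and 2.76 CPM against 0.0546 to 0.127 CPM with isotype and 0 to 0.154 CPM in untreated wells. Its log2 fold change of 1.71 (limma adjusted p = 3.63e-06) understates the change of so low a gene on this scale. Ifnb1 passed the filter through the PD-L1 antibody libraries alone, so it could count as a rise but not as a fall. Ebi3 and Il27, which together form interleukin-27, rose by 1.4 and 1.03 (adjusted p = 1.19e-05 and 0.000327).

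The direct ligands of several of the 10 chains were near or at 0, and they are named here after their values were seen. Il4, the ligand of Il4ra, did not exceed 0.206 CPM in any library, Il13 0.082 CPM and Ifng 0.148 CPM, and Il21 was listed for none of the 9 libraries, so that it has no measured value. Il10, the ligand of Il10ra, was detected at 2.53 to 4.97 CPM and did not pass against isotype (0.37, limma adjusted p = 0.0901).

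Of 26 partner and related receptor chains 22 were tested, and 6 rose and 5 fell against isotype (median -0.02). Il2ra, the high-affinity chain of the interleukin-2 receptor, went from 4.541 ± 2.48 to 21.67 ± 2.03 CPM (log2 fold change 2.12, limma adjusted p = 6.67e-05). Both of the next genes pair with gp130. Lifr, the receptor chain for leukaemia inhibitory factor, fell from 12.52 ± 2.39 to 3.355 ± 0.021 CPM (-1.62, adjusted p = 0.000203), and Il11ra1, the binding chain for interleukin-11, from 31.64 ± 0.591 to 19.86 ± 2.13 CPM (-0.65, adjusted p = 0.000316).

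All 4 Janus kinases were tested, with 2 rising and 0 falling against isotype. Jak2, the kinase of Ifngr2, went from 88.79 ± 6.41 CPM with isotype and 77.39 ± 16.4 in untreated wells to 303.8 ± 22.1 with the PD-L1 antibody (log2 fold change 1.76 and 1.98, limma adjusted p = 2.08e-06 and 9.26e-07). Jak1, which serves most of these receptors, was higher by only 0.25 (adjusted p = 0.0143), and this call was lost under total-count scaling (0.07, adjusted p = 0.429) and upper quartile scaling (0.18, adjusted p = 0.0521). Jak3 and Tyk2 did not pass against isotype, at 0.19 and 0.08 (adjusted p = 0.308 and 0.638). Neither passed against untreated wells, at -0.16 and 0.3 (limma adjusted p = 0.354 and 0.0613). Without untreated 7, Tyk2 passed there (0.46, limma adjusted p = 0.000124) and Jak3 did not (-0.3, adjusted p = 0.0575).

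Of the 7 STAT genes and Irf9, 5 rose and 0 fell against isotype, with a median of 0.34. Stat2, which joins Irf9 in the complex that type I interferons activate, went from 258.2 ± 47.8 to 585.8 ± 65.4 CPM (log2 fold change 1.19, limma adjusted p = 0.000299). Stat4, a mediator of interleukin-12 and type I interferon signals, rose by 1.09 and Stat3 by 0.46 (adjusted p = 0.000645 and 0.0021). Stat6, the factor downstream of Il4ra, did not pass against isotype (0.09, adjusted p = 0.475), with 305, 275 and 291 CPM under the PD-L1 antibody and 268, 266 and 283 CPM under isotype. Against untreated wells it passed (0.3, limma adjusted p = 0.0231), with 270, 224 and 216 CPM in untreated 7, 8 and 9. Stat6 is named here after its values were seen. With total-count scaling 4 genes of this list rose and 1 fell, beside 1565 of all 13741 genes higher and 4143 lower.

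Inhibitors of signalling and genes of receptor turnover showed 8 rises and 1 fall among 23 against isotype (median 0.11). The balance depended on the scaling, with 6 rises and 6 falls under total-count scaling (median -0.07). That scaling called 1565 of all 13741 genes higher and 4143 lower. Socs3, which binds gp130 and blocks its signal, went from 23.38 ± 2.21 CPM with isotype to 505.8 ± 129 with the PD-L1 antibody (log2 fold change 4.35, limma adjusted p = 1.31e-08). Usp18, which holds back signalling at Ifnar2, rose by 1.93 and Isg15, the ubiquitin-like modifier that it removes, by 1.92 (adjusted p = 6.51e-06 and 1.61e-05). Socs6 fell from 85.68 ± 4.55 to 33.21 ± 1.51 CPM (-1.34, adjusted p = 5.41e-06).

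Of 18 known targets of type I and II interferons 17 rose and 1 fell against isotype, with a median log2 fold change of 1.4. Cxcl10, a chemokine for activated T cells, went from 27.17 ± 4.34 to 307.1 ± 53.7 CPM (log2 fold change 3.45, limma adjusted p = 5.07e-08). The guanylate-binding proteins Gbp5 and Gbp2 rose by 2.42 and 1.66 (adjusted p = 1.12e-06 and 6.8e-06), and the exonuclease gene Isg20 by 2.17 (adjusted p = 8.96e-06).

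The known STAT6 targets were mixed: of 13 tested, 4 rose and 6 fell against isotype (median -0.64). Arg1, the arginase of alternatively activated macrophages, went from 0.1435 ± 0.0818 to 35.6 ± 9.93 CPM (log2 fold change 4.97, limma adjusted p = 1.31e-08). Arg1 and Ccl17, the latter named after its values were seen, are among the rises. Both passed the filter through the PD-L1 antibody libraries alone, so they could count as rises but not as falls. The lectins Clec10a and Mgl2 fell from 20.01 ± 3.29 to 1.896 ± 0.0808 CPM and from 10.05 ± 0.603 to 1.133 ± 0.677 CPM (-2.85 and -2.42, adjusted p = 5.95e-08 and 8.71e-06). The transcription factor Egr2 fell by 1.52 (adjusted p = 9.66e-05).

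Of 12 known STAT3 targets of interleukin-10 and interleukin-6, 8 rose and 1 fell against isotype (median 0.68). Il1rn, the interleukin-1 receptor antagonist, went from 52.2 ± 9.77 to 913.2 ± 197 CPM (log2 fold change 4.1, limma adjusted p = 5.44e-08) and Nfil3 from 34.27 ± 5.11 to 114.2 ± 2.56 CPM (1.72, adjusted p = 1.01e-06). The chemokine Ccl12 and Tnfaip3, an inhibitor of NF-kB signalling, rose by 3.1 and 1.52 (adjusted p = 8.34e-06 and 2.48e-05). Many genes of these target lists answer to several factors, so a list's name does not tell which receptor acted.

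**Figure D5:**
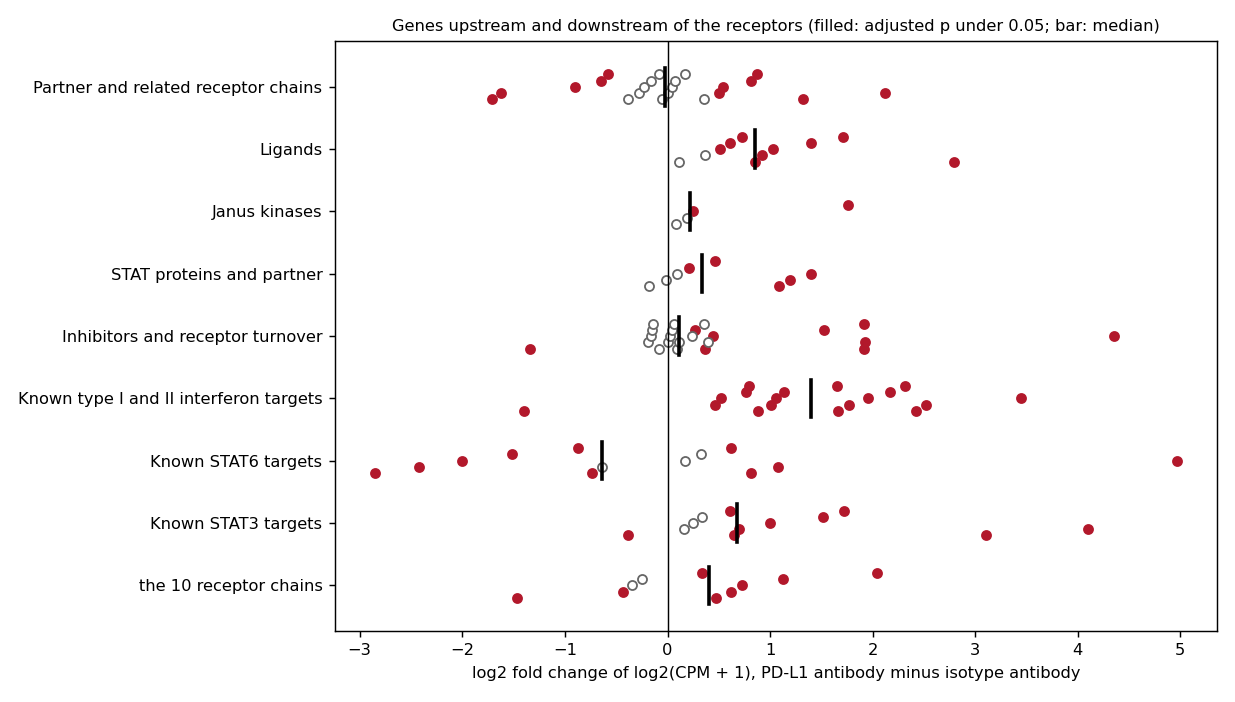
Log2 fold change (PD-L1 antibody minus isotype antibody) of every tested gene in 8 lists of pathway genes and of the 10 receptor chains, 1 point a gene, filled where the limma adjusted p is under 0.05, with a bar at each median. The interferon targets lie nearly all to the right (median 1.4), the STAT6 targets on both sides (median -0.64), and the 10 receptor chains between -1.47 and 2.04.

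Against untreated wells 7 ligands rose and 0 fell, 7 partner chains rose and 7 fell, 2 Janus kinases rose, 5 STAT genes rose, 11 inhibitors rose and 1 fell, 17 interferon targets rose and 1 fell, 5 STAT6 targets rose and 5 fell, and 10 STAT3 targets rose. The background there is 22% higher and 20.5% lower. The medians were 0.77 for ligands, 0.3 for Janus kinases, 0.46 for STAT genes, 0.19 for inhibitors, 1.25 for interferon targets, -0.12 for STAT6 targets and 0.72 for STAT3 targets. Without untreated 7, 9 ligands rose, 9 partner chains rose and 8 fell, 3 Janus kinases and 6 STAT genes rose, 11 inhibitors rose and 3 fell, and 5 STAT6 targets rose and 4 fell, with the other lists at the counts above. With untreated 7 kept, total-count scaling gave 7 inhibitors higher and 5 lower (median 0.05) and 4 STAT genes higher and 1 lower. It called 1940 of all genes higher and 4088 lower. Upper quartile scaling gave 8 inhibitors higher and 4 lower, beside 2403 of all genes higher and 3433 lower. Ligands kept 7 rises under both scalings. Between isotype and untreated wells 0 of the 111 tested entries of these 8 lists passed limma's threshold, 13 had an unadjusted p under 0.05, and 24 passed without untreated 7, beside the 9.56% and 6.85% of all genes called in that fit.

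Markers of other cells moved too. Neutrophil and precursor markers summed to 360.7 to 507.1 CPM under the PD-L1 antibody, 684.5 to 1280 CPM with isotype, where isotype 4 was the highest, and 515.8 to 713.5 CPM in untreated wells, and 4 of 9 tested fell and 0 rose against isotype. Their defining surface marker Ly6g did not exceed 0.322 CPM. Of 10 dendritic cell markers 1 rose and 6 fell against isotype, with sums of 432.6 to 492.6, 374.1 to 589.3 and 316.8 to 572.7 CPM. Ccr7, singled out after its values were seen, made up most of these sums, and the other 9 summed to 43.4 to 54, 82.6 to 90.8 and 67.2 to 88.6 CPM. T cell markers summed to 3.28 to 6.746, 6.136 to 14.69 and 12.79 to 24.36 CPM, with 2 of 5 tested, Cd4 and Cd2, falling. Cd4, singled out after its values were seen, was at 1.25 to 2.08, 2.77 to 8.21 and 7.34 to 17.4 CPM. The T cell receptor genes Cd3e, Cd3d and Cd3g did not exceed 0.823, 0.568 and 0.494 CPM in any library. Cd209a, Clec9a and Cd2, named after their values were seen, passed the filter through the isotype and untreated libraries alone. They could therefore count as falls but not as rises. The part of these cell types in the levels of the 10 receptor chains was not tested.

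Among the other marker lists, 4 of 10 macrophage genes rose and 1 fell against isotype, beside 18.2% of all genes in each direction. Cd14, Fcgr1, Adgre1 and Itgam rose by 1.71, 1.45, 1.28 and 1.15, and Cd68 changed by -0.58. The B cell genes (3 tested) and mast cell and basophil genes (5 tested) had 0 called by limma and 0 with an unadjusted p under 0.05, although 1 of the latter list passed without untreated 7. The 1 natural killer gene tested, Klrd1, fell, from 1.94, 1.57 and 1.32 CPM with isotype to 0.764, 0.452 and 0.0786 CPM with the PD-L1 antibody. Klrd1 passed the filter through the isotype and untreated libraries, so it could count as a fall but not as a rise. Of 6 stromal genes 2 rose and 0 fell, and of 4 erythroid and megakaryocyte genes 1 rose and 1 fell. B cell markers summed to at most 11.17 CPM and natural killer markers to at most 2.413 CPM in any library.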

How the data were processed

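RNA of 9 macrophage samples was sequenced in 150-base read pairs. Per the submitters' processing notes Partek and STAR were used; versions, steps and the genome build are not given in the sources used here. Transcript positions matched GRCm38 (10 of 10 receptor genes overlap the GENCODE M21 gene of that name). The deposited read counts per RefSeq transcript cover the whole genomic span, introns included, as tested on the files. The deposited average coverage is, per the file headers, the signal per exonic base. The deposited percent values (GC and bases covered) were not used in any test. No column of another series was found.

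Exonic read equivalents (average coverage times exon length over the read length of 150) replaced the counts, which would call for edgeR, because counts over spans mix introns and neighbouring genes; edgeR and DESeq2 on the deposited counts were alternatives. These equivalents amounted to 67.74 to 70.6% of span reads. The transcript with the largest sum stood for each symbol (35131 transcripts, 22376 symbols). After edgeR's filterByExpr and TMM scaling (factors 0.919 to 0.932 for PD-L1 antibody and 1.009 to 1.063 elsewhere), log2(CPM + 1) of all 9 libraries entered 1 limma fit (trended variance, a mean for each group). Tests were two-sided, adjusted by Benjamini-Hochberg over all genes, at a threshold of 0.05. Fold changes on this scale understate changes of low genes. Chain ratios were tested by exact permutation over libraries. Depth limits low genes most, and without molecular identifiers PCR copies of a molecule count as separate reads.

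The receptor chains, gene lists, tests and alternatives were chosen with earlier results of these data known. All 10 chains are named, and from each pathway list up to 4 genes of lowest p against isotype, apart from 1 gene that is not reported here. The procedure was tested on simulated data, which, unlike these data, had the same spread for all genes, few changed genes and no library set apart. Software was R 4.3.3, limma 3.58.1, edgeR 4.0.16, DESeq2 1.42.0, Python 3.11.15, pandas 2.3.3, numpy 2.4.6 and matplotlib 3.10.9.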

Additional observations from a re-analysis of the deposited data

How the results depend on the processing

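Under 23 alternatives (scaling, filter, pseudocount, transcript, tool, threshold, groups in the fit, and each library left out) the number of chains called was 7 to 10 against isotype and 8 to 9 against untreated wells. The number of all genes called moved as well. Against isotype it ran from 3228 of 13741 at a threshold of 0.01 to 6030 of 13988 without untreated 7. In the same settings it ran from 3821 to 6766 against untreated wells. Leaving out single libraries gave 7 to 10 chains, 8 to 9 and, between isotype and untreated wells, 0 to 5, the 5 without untreated 7 alone. Those fits called at least 3774 of 14060 genes against isotype and 4524 of 13966 against untreated wells. No chain changed sign in either PD-L1 antibody comparison. The calls of Il4ra, Il21r, Ifnar1, Ifngr2, Ifnar2, Il6st and Il6ra held against both controls under all 23, as did Il10ra against untreated wells, while Il13ra1, Ifngr1 and Il10ra crossed the threshold as given above. Between isotype and untreated wells, Il21r turned to -0.04 without isotype 4 and -0.05 without untreated 8 and ran up to 0.12 as single libraries were left out. The log2 ratio of Ifngr1 to Ifngr2 there was -0.01 without untreated 7, from 0.09, with a highest value of 0.15, and that of Il10ra to Il10rb 0.02 without isotype 6, from -0.03, with a lowest value of -0.1; the cause was not tested.

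Total-count scaling moved the median of all genes against isotype to -0.16 and the calls to 1565 higher and 4143 lower, from 2495 and 2501; the median of the 10 chains moved from 0.41 to 0.23. Against untreated wells it moved the median of all genes to -0.13 and the calls to 1940 higher and 4088 lower, from 3017 and 2814. Upper quartile scaling gave 2093 higher and 2927 lower, and 2403 and 3433. Without untreated 7, a setting chosen for the lists after seeing the data, the counts against isotype moved from 8 to 9 rises and 1 to 2 falls for inhibitors, from 0 to 1 fall for STAT genes, from 8 to 9 rises for STAT3 targets, and from 4 to 6 falls for neutrophil, 6 to 7 for dendritic cell, 1 to 2 for macrophage, 1 to 2 for erythroid and 0 to 1 for mast cell markers. Ligands (9 rises) and interferon targets (17 rises, 1 fall) kept their counts in this setting. Under total-count and upper quartile scaling 7 and 8 ligands rose against isotype and 0 fell. Interferon targets stayed at 17 rises and 1 fall under both scalings. No paired analysis was possible because the groups share no replicate number.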
